A study of Saccharomyces cerevisiae with 12 samples.

Results

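The probe sets described here are those named for the PAU, COS and AAD gene families of budding yeast (Saccharomyces cerevisiae), families whose copies sit mostly near chromosome ends. They were chosen by gene symbol alone: PAU, COS or AAD followed by a number, or YRF1 followed by a copy number. Of 5715 probe sets in the table, 33 met this rule, 16 for 13 PAU genes, 9 for 9 COS genes and 8 for 5 AAD genes. The rule found 0 probe sets with a YRF1 symbol, so the Y' element helicases were not analysed here. The R64 gene list of the reference strain S288C names 24 PAU, 12 COS, 6 AAD and 8 YRF1 genes, of which 13, 9, 5 and 0 were carried by a probe set.

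Messenger RNA was measured on 12 Affymetrix Yeast Genome 2.0 arrays, 3 from triplicate cultures of each of 4 strains in the W303-1A background. The wild type was W303-1A (W303-CH1A in the strain label), and the bmh mutant (YLL1087) had the alleles bmh1-170ts and bmh2∆, which reduce the 14-3-3 proteins, adaptors that bind phosphorylated partners. The hdac mutant (CTY-TY44) had hda1∆ and rpd3∆, which remove 2 histone deacetylases. The combined mutant (KBY3) had bmh1-170ts, bmh2∆, hda1∆ and rpd3∆. All cultures grew exponentially at 30 °C in YP medium with 5% glucose. Each genotype is a single strain in the labels, so other differences between strains cannot be told apart from the named mutations. In RNA from whole cultures, fewer expressing cells and less RNA per cell cannot be told apart either.

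Subtelomeres are the stretches next to the telomere repeats, where silencing by the Sir proteins reaches in from the chromosome end and where gene families have spread by recombination between ends. Hda1 deacetylates histones in broad domains close to many ends, and Rpd3 is known to limit how far Sir silencing extends, so both deletions are known to alter expression there. The PAU genes encode seripauperins, small serine-poor relatives of the Tir and Dan cell wall mannoproteins that are induced without oxygen, in the cold and during wine fermentation. The COS genes encode membrane proteins of the DUP380 family that help to sort other surface proteins into the multivesicular body. The AAD genes encode putative aryl-alcohol dehydrogenases, of which AAD4 and AAD6 are known to respond to oxidative stress through the activator Yap1.

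Copies within these families can be nearly identical, and some of the probe set names record this, most of all for PAU. A name ending in _s_at marks probes that match several transcripts equally, and one ending in _x_at marks a set in which some probes match other transcripts. Of the 16 PAU probe sets, 2 end in _s_at and 11 in _x_at; of the 9 COS sets 3 end in _s_at, and of the 8 AAD sets 2 end in _s_at and 1 in _x_at. In all, 19 of the 33 members are of these kinds, against 132 of 5715 in the table, so a value of such a set is a value of the family copies it matches rather than of 1 gene. The array follows the S288C sequence, and copy number and sequence of these families differ between strains, which was not tested here.

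Values are signals on a log2 scale made by the authors with RMA, and differences are log2 differences with the standard error from limma, 3 arrays per strain. A probe set was called changed at a Benjamini-Hochberg adjusted p under 0.05 over all 5715 probe sets, and "rose" and "fell" are used for called differences. RMA brings the arrays to a common distribution, and array medians lay between 8.81 and 8.85. Each deleted gene had a low signal in the strains that lack it: BMH2 had a mean of 4.03 in the bmh and 3.80 in the combined mutant against 11.64 in the wild type, HDA1 3.82 and 3.78 in the hdac and combined mutants against 8.22, and RPD3 3.86 and 3.89 against 9.61. The highest of those 18 values, 4.13, served as the background level. The source name of the hdac and combined arrays gives their strain names the other way round, and these signals go with the genotype labels. COS12 was at or below background on average in all 4 strains, and the other 32 members were above it in every strain.

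Wild-type array 1 stood apart from wild-type arrays 2 and 3, and the members showed it. On this array 14 of the 16 PAU probe sets were lower than the average of wild-type arrays 2 and 3, with a median of −0.44 and a lowest value of −1.28 for PAU8. Of the 9 COS probe sets 6 were higher, with a median of 0.39, while COS10 (−0.97) and COS111 (−0.82) were lower. The AAD probe sets were closer, from −0.24 to 0.02. The median SD of the members was 0.24 in the wild type and 0.094 to 0.12 in the mutants, against 0.14 and 0.066 to 0.068 over all probe sets. Differences from the wild type are therefore also given without wild-type array 1 where this matters. On hdac array 2 all 16 PAU probe sets were below the mean of the other hdac arrays, with a median of −0.27.

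**Figure D1:**
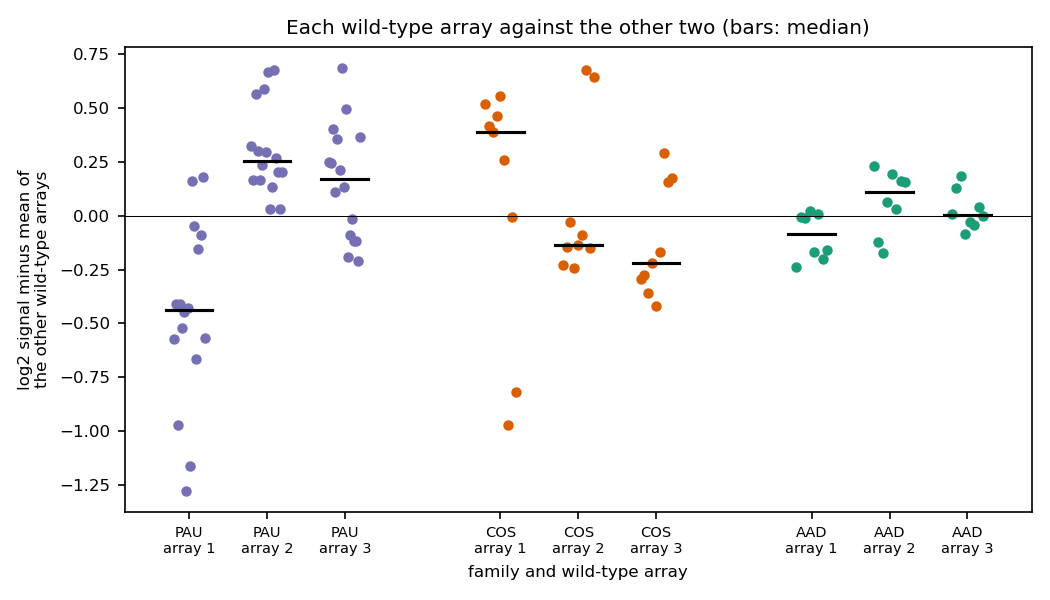
Each point is 1 probe set on 1 wild-type array; the vertical axis gives its log2 signal minus the average of the remaining wild-type arrays, by family and array, and bars are medians. Array 1 is low for PAU (median −0.44), high for most COS (median 0.39) and near the others for AAD (median −0.09).

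Over all families, limma called 9 of 33 members in the bmh mutant against the wild type, 22 in the hdac mutant, and 27 when all mutations were combined. Over all probe sets 31.8%, 71.3% and 75.7% were called in these comparisons, and the shares of members called were close to them. The arrays of the strains did not overlap for 10, 19 and 28 of the 33, against 41.1%, 71.3% and 75.6% of all probe sets. Between the combined and the bmh mutant 28 did not overlap, and between the combined and the hdac mutant 25, against 82.8% and 58.5%. AAD10 was the member with the largest difference from the wild type in the bmh and combined mutants, and PAU3 in the hdac mutant.

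**Figure D2:**
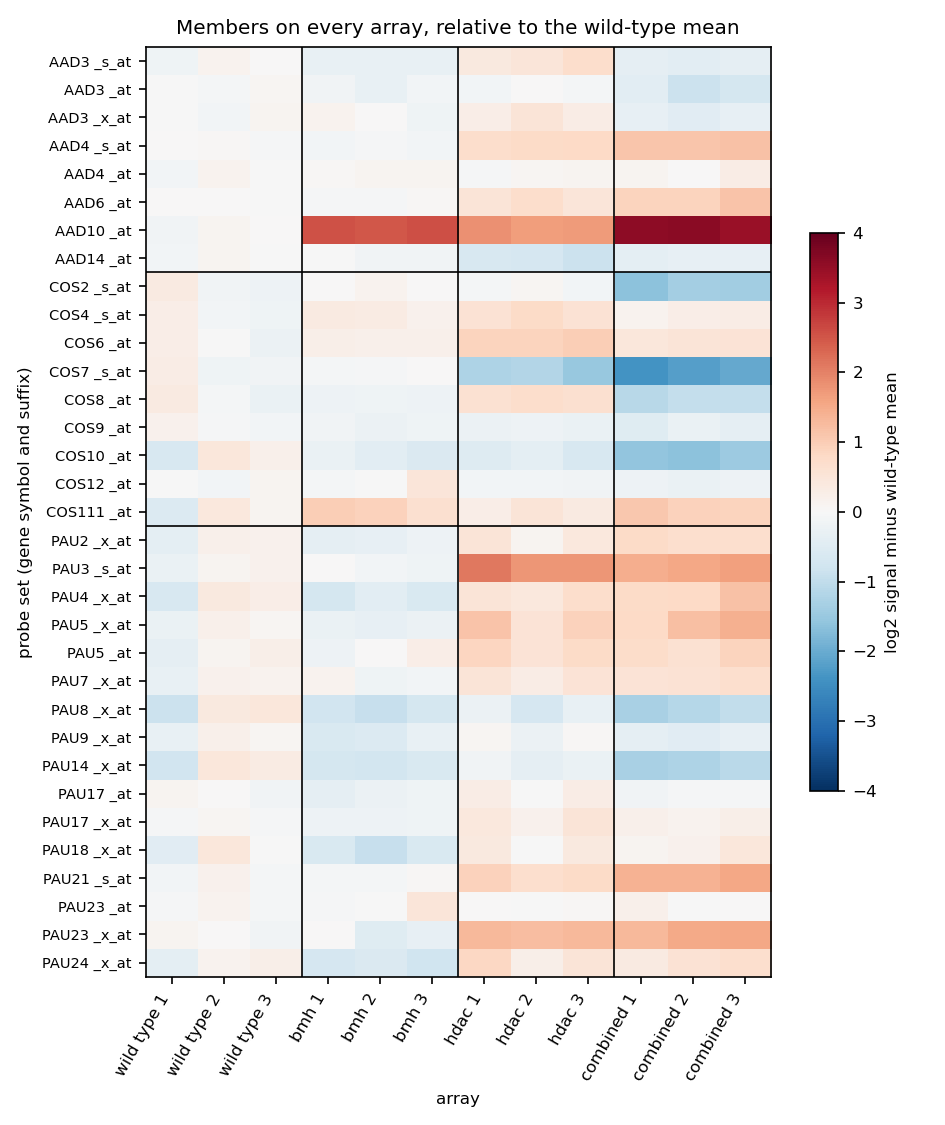
Colour gives the log2 signal of each of the 33 probe sets (rows, by gene symbol and suffix) on each of the 12 arrays (columns) minus its wild-type mean, from blue (−4) to red (4). AAD10 is red on all 9 mutant arrays, COS7 is blue on the 6 arrays without HDA1 and RPD3, and most PAU rows are red on those 6 arrays.

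In the strain without HDA1 and RPD3, 10 of 16 PAU probe sets rose, 0 fell and 6 did not pass, with a median difference of 0.42. Over all probe sets, 30.4% rose and 40.9% fell (71.3% in either direction), and the median difference was −0.08. The PAU rises were between 1.27-fold for PAU2 and 3.67-fold for PAU3. Of the 13 PAU sets ending in _s_at or _x_at 9 rose, and as these can match the same copies, they are not independent. Of the 3 PAU sets ending in _at, which carry no shared probes by name, 1 rose (PAU5). The rises covered PAU2, PAU3, PAU4, PAU5 (2 sets), PAU7, PAU17, PAU21, PAU23 and PAU24. The same 10 probe sets rose in the combined mutant, where 3 fell and 3 did not pass. The median was 0.57 there, against −0.12 over all probe sets, of which 31.0% rose and 44.7% fell (75.7% in either direction). Of the 1738 probe sets in the table that rose in the hdac mutant, 1459 also rose in the combined mutant. Both comparisons use the same wild-type arrays. Of the 13 sets ending in _s_at or _x_at, 9 rose in the combined mutant (median 0.61), and of the 3 ending in _at, 1 rose (median 0.07). In the bmh mutant 0 of 16 rose and 6 fell, with a median of −0.27, against 14.8% and 16.9% (31.8% in either direction) over all probe sets.

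PAU3 (YCR104W), a seripauperin whose gene is the fifth from its chromosome end in the R64 gene order, is read by an _s_at set. Its signals were 4.92, 5.31 and 5.36 in wild type, 5.22, 5.09 and 5.02 in the bmh mutant, 7.30, 6.96 and 6.97 in the hdac mutant and 6.64, 6.76 and 6.84 in the combined strain. The 6 arrays without the deacetylases lay above all 6 arrays with them, and the wild type and the bmh mutant overlapped. PAU3 rose by 1.88 ± 0.12 (SE) in the hdac mutant (adjusted p = 5.6e-08) and by 1.55 ± 0.12 in the combined strain (adjusted p = 2.2e-07), while the bmh difference was −0.09 (adjusted p = 0.62). The combined mutant was 0.33 below the hdac mutant, which did not pass (adjusted p = 0.052) except without wild-type array 1 or 3 (adjusted p = 0.0083 without the first).

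PAU21 (YOR394W), also read by an _s_at set, was close to background in the wild type. It measured 4.13, 4.41 and 4.16 in wild type, 4.15, 4.16 and 4.28 in the bmh mutant, 5.15, 4.91 and 5.01 in the hdac mutant and 5.62, 5.64 and 5.77 in the combined strain. The strains formed steps: wild type and bmh mutant overlapped, the hdac arrays lay above them, and the combined arrays lay above the hdac arrays. The rise was 0.79 ± 0.087 in the hdac mutant (adjusted p = 5.8e-06) and 1.44 ± 0.087 in the combined strain (adjusted p = 2e-08), and the difference between these mutants, 0.65, was called as well (adjusted p = 0.00012).

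PAU23 (YLR037C), known also as DAN2 and as expressed without oxygen, is read by 2 probe sets that disagreed. The _x_at set measured 8.64, 8.54 and 8.38 in wild type, 8.54, 8.05 and 8.19 in the bmh mutant, 9.80, 9.76 and 9.81 in the hdac mutant and 9.81, 10.04 and 10.06 in the combined strain. The strains without deacetylases lay above the others with no overlap, and this set rose by 1.27 ± 0.12 (hdac, adjusted p = 1e-06) and 1.45 ± 0.12 (combined, adjusted p = 2.3e-07). The _at set measured 12.38, 12.58 and 12.37, then 12.40, 12.44 and 12.92, then 12.45, 12.43 and 12.50, then 12.65, 12.44 and 12.46 in the same order of strains. All 4 strains overlapped on the _at set, whose largest difference from the wild type was 0.14, the smallest such value in the family. The probe sets share the gene name, and which of them reads PAU23 RNA was not tested.

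PAU5 (YFL020C), a seripauperin gene known to be active in alcoholic fermentation, is read by an _at and an _x_at set that agreed in direction. The _x_at set measured 5.72, 6.20 and 6.07 in wild type, 5.72, 5.66 and 5.76 in the bmh mutant, 7.13, 6.55 and 6.93 in the hdac mutant and 6.79, 7.19 and 7.41 in the combined strain. All 6 arrays without deacetylases lay above the other 6 arrays. This set rose by 0.87 ± 0.17 in the hdac mutant (adjusted p = 0.00068) and 1.13 ± 0.17 in the combined strain (adjusted p = 7.6e-05), and the _at set rose by 0.73 and 0.75. PAU7 (YAR020C) rose by 0.46 (adjusted p = 0.0049) and 0.61 (adjusted p = 0.00068) in the same strains.

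PAU14 and PAU8 went the other way. PAU14 (YIL176C) measured 9.68, 10.90 and 10.78 in wild type, 9.75, 9.73 and 9.84 in the bmh mutant, 10.32, 10.09 and 10.18 in the hdac mutant and 9.15, 9.22 and 9.39 in the combined strain. PAU8 (YAL068C), the outermost gene of its chromosome end in the R64 order, measured 8.18, 9.43 and 9.49, then 8.27, 8.12 and 8.33, then 8.80, 8.35 and 8.75, then 7.74, 7.89 and 8.06. On both sets wild-type array 1 was at the level of the bmh arrays and far below the other wild-type arrays, and the combined arrays were the lowest. PAU14 fell by 1.20 ± 0.24 (adjusted p = 6e-04) and PAU8 by 1.14 ± 0.27 (adjusted p = 0.0023) in the combined mutant. Their hdac differences, −0.26 and −0.40, did not pass, and without wild-type array 1 they were −0.64 (adjusted p = 1.1e-05) and −0.83 (adjusted p = 5.4e-05), called falls.

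The third PAU fall in the combined mutant was that of PAU9 (−0.38, adjusted p = 0.018), which ended without combined array 2 or wild-type array 2 or 3 (highest adjusted p = 0.078). Among the other rises in the hdac mutant, wild-type array 1 mattered for PAU2 (0.34, and 0.15 without it), PAU4 (0.55, and 0.23 without it) and PAU24 (0.53, and 0.34 without it). The call of PAU2 ended on leaving out any of 9 arrays (highest adjusted p = 0.18) and that of PAU4 any of 5 (highest adjusted p = 0.12), while that of PAU24 ended without hdac array 1 (adjusted p = 0.076). In the combined mutant PAU4 (0.91) was 0.59 and PAU24 (0.54) was 0.35 without wild-type array 1, both still called, and PAU24 was not called without combined array 3 (adjusted p = 0.053). The call of the PAU17 _x_at set in the combined mutant (0.19) ended on leaving out any of 9 of the 12 arrays (highest adjusted p = 0.13). Without wild-type array 1, 9 PAU sets rose and 2 fell in the hdac mutant (median 0.28), and 9 rose and 3 fell in the combined mutant (median 0.40). The count of PAU rises in the hdac mutant was 7 with only the wild-type and hdac arrays in the fit. It was also 7 without hdac array 1. Under quantile normalization, or without hdac array 3 or bmh array 3, 8 rose, and without wild-type array 2 it was 11. In each of these fits 0 PAU sets fell in the hdac mutant.

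The falls in the bmh mutant were under 2-fold, and most of the calls ended on leaving out a single array. They were in PAU8 (−0.80), PAU18 (−0.72), PAU14 (−0.68), PAU24 (−0.68), PAU9 (−0.49) and the PAU17 _at set (−0.26). The adjusted p of these falls ranged from 0.01 for PAU24 to 0.049 for PAU17. The calls of PAU8 and PAU14 ended on leaving out any array but wild-type array 1 (highest adjusted p = 0.15 and 0.17), and without wild-type array 1 the differences were −1.22 and −1.07. PAU17 lost its call on leaving out any of 10 arrays, PAU18 without bmh array 2 or wild-type array 2, and PAU9 without bmh array 1 or wild-type array 2, while PAU24 kept its call on leaving out any 1 array. Leaving out a wild-type array turned the count of 6 into 7 (array 1), 1 (array 2) or 4 (array 3); it was 2 without bmh array 2 and 3 without bmh array 1, bmh array 3, hdac array 1, hdac array 3 or any combined array. With only the wild-type and bmh arrays in the fit it was 1.

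The largest PAU median was that of the combined relative to the bmh mutant, and it rested mostly on shared probe sets. Here 11 of 16 PAU probe sets rose and 0 fell, with a median of 0.85. Over all probe sets 30.6% rose and 44.4% fell (74.9% in either direction), with a median of −0.11. Of the 13 PAU sets ending in _s_at or _x_at, which are not independent, 10 rose (median 1.00). Of the 3 ending in _at, 1 rose (median 0.18). The rises ran from 0.39 for the PAU17 _x_at set to 1.71 for the PAU23 _x_at set, and 7 of them were at least 2-fold. They included PAU18 (0.97), whose differences from the wild type did not pass in the hdac (0.24) or the combined mutant (0.25), but passed without wild-type array 2 (0.47, adjusted p = 0.03, and 0.48, adjusted p = 0.026). Wild-type array 1 has no part in these differences, and leaving it out of the shared spread gave 11 rises and 2 falls. Relative to the hdac mutant, the combined mutant had 1 PAU rise (PAU21) and 2 falls (PAU14 and the PAU17 _at set), against 17.5% and 18.7% (36.2% in either direction) over all probe sets. There were 3 rises and 5 falls without wild-type array 1, and 1 rise with 4 falls without wild-type array 2 or 3 or hdac array 2. With 1 rise, 1 fall was left without bmh array 2, hdac array 1, hdac array 3 or any combined array, and the fall of the PAU17 _at set (−0.27) ended on leaving out any of 6 arrays (highest adjusted p = 0.14).

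**Figure D3:**
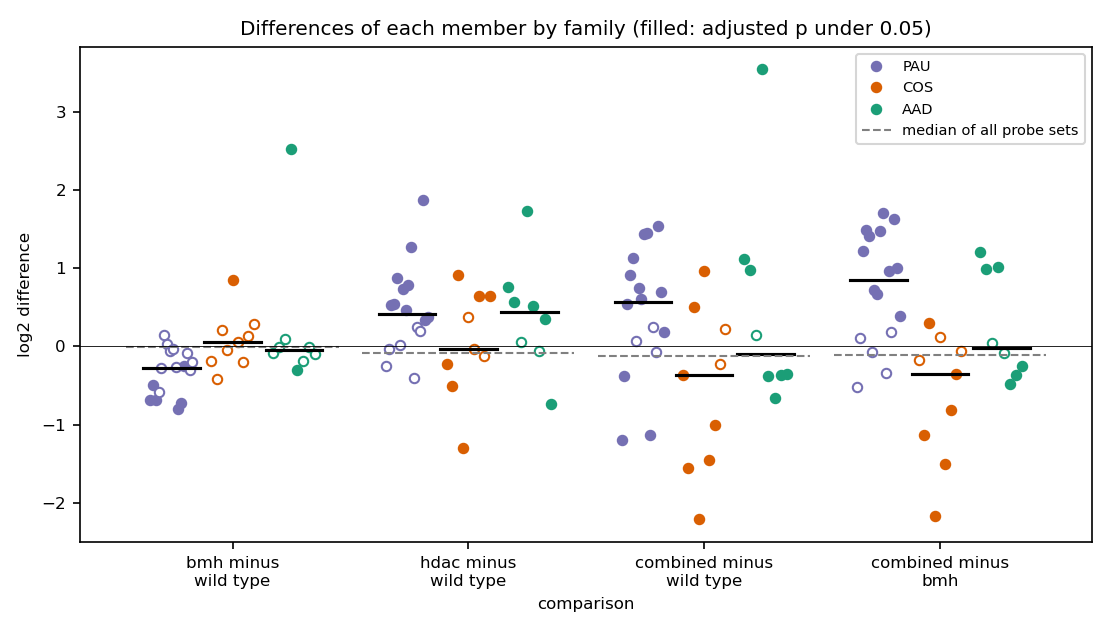
Each point is the log2 difference of 1 probe set in 1 comparison, by family; filled points are called at adjusted p under 0.05, black bars are family medians and dashed lines the medians of all probe sets. PAU medians are −0.27, 0.42, 0.57 and 0.85 from left to right, COS medians 0.05, −0.03, −0.37 and −0.36, and AAD points spread to both sides in every comparison.

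The COS probe sets did not move together. Relative to the wild type, 1 of 9 rose and 0 fell in the bmh mutant, 3 rose and 3 fell in the hdac mutant, and 2 rose and 5 fell in the combined mutant, where the median was −0.37. The 6 and 7 COS sets called in the strains without deacetylases were near the 71.3% and 75.7% called over all probe sets. In the bmh mutant 31.8% of all probe sets were called. One of the 9, COS111 (YBR203W), has the symbol but is not a subtelomeric COS gene: its rank from the chromosome end is 103, and its product is known for resistance to an antifungal drug. It accounts for the only bmh rise, although COS4 (0.43) and COS6 (0.34) rose and COS10 (−0.74) fell there without wild-type array 1, and 2 sets, COS8 and COS9, fell without wild-type array 3. Without COS111, 0 of 8 passed in the bmh mutant by limma, 3 rose and 3 fell in the hdac mutant, and 1 rose and 5 fell in the combined mutant. Of these 8 sets, 6 fell and 0 rose in the combined relative to the hdac mutant, and all 8 differences were negative, with a median of −0.66, against 17.5% rising and 18.7% falling over all probe sets. Relative to the bmh mutant, the combined mutant had 1 rise (COS6, 0.30, adjusted p = 0.016) and 5 falls among the 9 COS sets, against 30.6% and 44.4%. The COS6 call ended without combined array 3 (adjusted p = 0.052), which left 0 COS rises. One of the 5 falls, and the median of −0.36, was the value of COS12, which lay at background. With COS12 left out there were 4 falls and a median of −0.49, and the medians against the wild type were 0.17 in the hdac mutant, in place of −0.03, and −0.69 in the combined mutant. With COS12 kept and bmh array 3 left out, the median against the bmh mutant was −0.18.

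COS7 (YDL248W), the outermost gene of its chromosome end, fell in both strains without deacetylases. Its _s_at set measured 8.74, 8.27 and 8.28 in wild type, 8.34, 8.37 and 8.45 in the bmh mutant, 7.19, 7.27 and 6.92 in the hdac mutant and 6.05, 6.22 and 6.39 in the combined strain. Wild type and bmh mutant overlapped, the hdac arrays lay below both, and the combined arrays lay below the hdac arrays. COS7 fell by 1.30 ± 0.13 in the hdac mutant (adjusted p = 2.7e-06) and by 2.21 ± 0.13 in the combined strain (adjusted p = 1.7e-08), the largest fall of any member, and the combined mutant was 0.91 below the hdac mutant (adjusted p = 0.00022).

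COS2 (YBR302C), also an outermost gene and read by an _s_at set, fell in the combined mutant. It measured 12.09, 11.59 and 11.54 in wild type, 11.74, 11.87 and 11.76 in the bmh mutant, 11.67, 11.83 and 11.62 in the hdac mutant and 10.11, 10.39 and 10.35 in the combined strain. The 3 combined arrays lay more than 1 unit below the other 9, which overlapped. The combined difference from the wild type was −1.46 ± 0.13 (adjusted p = 6.2e-07), against 0.05 for the bmh mutant (adjusted p = 0.79) and −0.03 for the hdac mutant (adjusted p = 0.84).

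COS8 (YHL048W), read by an _at set, moved in opposite directions in the hdac and combined mutants. It measured 9.96, 9.50 and 9.31 in wild type, 9.38, 9.41 and 9.39 in the bmh mutant, 10.20, 10.30 and 10.24 in the hdac mutant and 8.47, 8.63 and 8.66 in the combined strain. The hdac arrays lay above and the combined arrays below all 6 arrays of the strains with deacetylases. COS8 rose by 0.65 ± 0.13 in the hdac mutant (adjusted p = 0.00059) and fell by 1.01 ± 0.13 in the combined mutant (adjusted p = 1.4e-05), so that the combined mutant stood 1.66 below the hdac mutant (3.16-fold, adjusted p = 1e-06).

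COS6 (YGR295C) rose in both strains without deacetylases. Its signals were 9.30, 9.02 and 8.80 in wild type, 9.26 on bmh arrays 1 and 2 and 9.25 on array 3, 9.95, 9.92 and 10.02 in the hdac mutant and 9.49, 9.56 and 9.60 in the combined strain. The rise was 0.92 ± 0.098 in the hdac mutant (adjusted p = 4.2e-06) and 0.51 ± 0.098 in the combined strain (adjusted p = 0.00047), and the combined mutant was 0.41 below the hdac mutant (adjusted p = 0.0066). COS4 (YFL062W) rose by 0.64 in the hdac mutant (adjusted p = 0.00019) and was at 0.23 in the combined mutant, which passed only without wild-type array 1 (0.37, adjusted p = 0.00063).

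COS10 (YNR075W) measured 5.63, 6.73 and 6.47 in wild type, 6.01, 5.86 and 5.71 in the bmh mutant, 5.77, 5.88 and 5.65 in the hdac mutant and 4.71, 4.62 and 4.83 in the combined strain. Wild-type array 1 lay below the bmh and hdac arrays, and the combined arrays were the lowest. COS10 fell by 1.56 ± 0.21 in the combined mutant (adjusted p = 2.8e-05). Its fall in the hdac mutant (−0.51, adjusted p = 0.047) ended on leaving out any array but wild-type array 1 (highest adjusted p = 0.21), and was −0.83 without wild-type array 1 and −0.28 without wild-type array 2. The bmh difference of −0.42 (adjusted p = 0.16) was −0.74 without wild-type array 1 (adjusted p = 0.00011).

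COS9 (YKL219W) had small falls, −0.22 in the hdac mutant (adjusted p = 0.024) and −0.37 in the combined strain (adjusted p = 0.0011), the first of which ended without wild-type array 1 (−0.14, adjusted p = 0.073), hdac array 1 or hdac array 3. With both doubtful calls lost, 1 COS fall (COS7) was left in the hdac mutant without hdac array 1 or hdac array 3. COS12 (YGL263W), at background, lay between 3.57 and 4.31 on all 12 arrays, so its differences give no fold, and its called difference between the combined and bmh mutants (−0.36) was −0.18 without bmh array 3. COS111 measured 5.999, 6.98 and 6.66 in wild type, 7.53, 7.48 and 7.18 in the bmh mutant, 6.80, 7.06 and 6.91 in the hdac mutant and 7.63, 7.47 and 7.44 in the combined strain. Both strains with bmh mutations lay above the wild type and the hdac mutant, and COS111 rose by 0.85 ± 0.19 in the bmh mutant (adjusted p = 0.0052) and 0.97 ± 0.19 in the combined mutant (adjusted p = 6e-04).

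The AAD family held both the largest rise of any member and several falls. AAD10 (YJR155W), a putative aryl-alcohol dehydrogenase read by an _at set, measured 6.92, 7.16 and 7.08 in wild type, 9.59, 9.53 and 9.64 in the bmh mutant, 8.87, 8.73 and 8.78 in the hdac mutant and 10.62, 10.67 and 10.52 in the combined strain. No 2 strains overlapped, and the order was wild type, hdac mutant, bmh mutant, combined mutant. AAD10 rose 5.77-fold in the bmh mutant (2.53 ± 0.073, adjusted p = 3e-10), 3.33-fold in the hdac mutant (1.74 ± 0.073, adjusted p = 1.1e-09) and 11.7-fold in the combined mutant (3.54 ± 0.073, adjusted p = 1.7e-12). In the bmh mutant it was 1 of 2 AAD calls and the only AAD rise among 8 probe sets, the other call being a fall in the AAD3 _s_at set (−0.30, adjusted p = 0.021) that ended without any 1 bmh array or wild-type array 2 (highest adjusted p = 0.082).

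AAD4 (YDL243C) and AAD6 (YFL056C) rose in steps in the strains without deacetylases. The AAD4 _s_at set measured 9.63, 9.65 and 9.56 in wild type, 9.50, 9.58 and 9.49 in the bmh mutant, 10.32, 10.37 and 10.42 in the hdac mutant and 10.71, 10.71 and 10.79 in the combined strain. AAD6, which the R64 list gives as a pseudogene, measured 7.17, 7.18 and 7.14, then 7.13, 7.12 and 7.22, then 7.68, 7.86 and 7.65, then 8.06, 8.05 and 8.31 in the same order of strains. On both sets wild type and bmh mutant overlapped, the hdac arrays were higher and the combined arrays higher again.

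AAD4 rose by 0.76 ± 0.055 in the hdac mutant (adjusted p = 1.6e-07) and 1.12 ± 0.055 in the combined strain (adjusted p = 3.3e-09). AAD6 rose by 0.57 ± 0.080 (adjusted p = 4.5e-05) and 0.98 ± 0.080 (adjusted p = 2.9e-07). The combined mutant exceeded the hdac mutant by 0.37 for AAD4 (adjusted p = 0.00028) and 0.41 for AAD6 (adjusted p = 0.0017). The AAD4 _at set, by contrast, lay between 4.64 and 5.06 on all 12 arrays, and its largest difference from the wild type, 0.14, did not pass (adjusted p = 0.15).

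AAD14 (YNL331C) was the AAD gene that fell in both strains without deacetylases. It measured 6.73, 6.94 and 6.84 in wild type, 6.81, 6.70 and 6.70 in the bmh mutant, 6.18, 6.15 and 5.97 in the hdac mutant and 6.46, 6.50 and 6.51 in the combined strain. The combined arrays lay between the hdac arrays and those of the other strains. RPD3, deleted in both of these strains, is the gene next to AAD14 in the R64 order, and the part of the deletion itself in the AAD14 values was not tested. AAD14 fell by 0.73 ± 0.072 in the hdac mutant (adjusted p = 2.1e-06) and by 0.35 ± 0.072 in the combined strain (adjusted p = 0.00089).

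AAD3 (YCR107W) is read by 3 probe sets. The _s_at set measured 7.48, 7.79 and 7.64 in wild type, 7.33, 7.35 and 7.34 in the bmh mutant, 8.03, 8.11 and 8.33 in the hdac mutant and 7.29, 7.20 and 7.27 in the combined strain. The _at set, at a signal nearer background, measured 4.93, 4.85 and 5.02, then 4.79, 4.63 and 4.82, then 4.84, 4.94 and 4.85, then 4.51, 4.08 and 4.21. The hdac arrays were highest on the _s_at set and overlapped with the wild type on the _at set, and the combined arrays were the lowest on both. All 3 sets fell in the combined mutant, with differences of −0.38 (_s_at), −0.66 (_at) and −0.37 (_x_at, adjusted p from 6.1e-05 to 0.0042). In the hdac mutant the _s_at and _x_at sets rose by 0.52 and 0.35 and the _at set was at −0.06 (adjusted p = 0.62).

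In all, 5 of 8 AAD probe sets rose and 1 fell in the hdac mutant, and 3 rose and 4 fell in the combined mutant, with medians of 0.44 and −0.10. The 6 and 7 sets called were near the 71.3% and 75.7% of all probe sets. Of the 4 falls in the combined mutant, 3 were the sets of AAD3. With 1 probe set per gene, 3 of 5 genes rose and 2 fell there, and the median turned to 0.98; without shared probe sets 2 rose and 2 fell, with a median of 0.14. In the hdac mutant the median without shared probe sets was 0.05, with 2 rises and 1 fall. The counts over the 8 sets stayed the same on leaving out any 1 array. Under quantile normalization 4 rose and 2 fell in the hdac mutant. Against the bmh mutant, 3 AAD sets rose and 3 fell in the combined mutant, and against the hdac mutant 4 rose and 3 fell, where 74.9% and 36.2% of all probe sets were called. With 1 probe set per gene these were 3 rises with 1 fall and 4 rises with 1 fall.

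**Figure D4:**
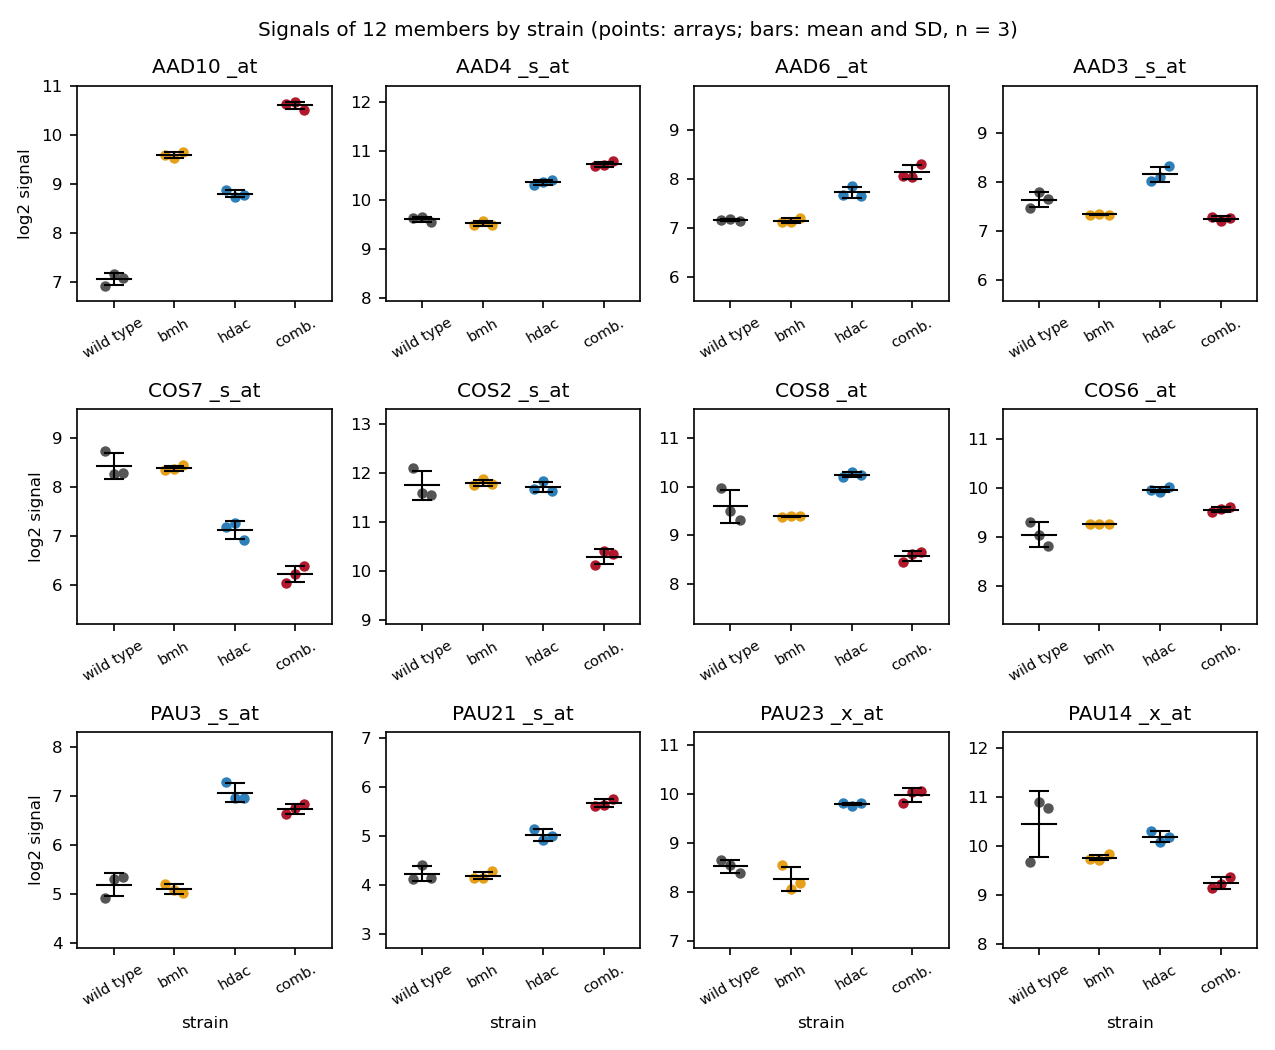
Log2 signal of 12 probe sets (panels) by strain; points are single arrays, and bars give the mean and SD (n = 3). Every panel spans 4.4 units. AAD10 separates all strains, COS8 and AAD3 are highest in the hdac and lowest in the combined mutant, and wild-type array 1 stands below the other wild-type arrays for PAU14.

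The interaction was the combined minus the bmh minus the hdac plus the wild-type mean. It tested whether the bmh and hdac differences from the wild type add up in the combined mutant. The hdac arrays also differ in mating-type transcripts (given below). The interaction therefore cannot tell dependence on the bmh mutations apart from cell type. Of the 33 members 15 passed, 6 higher and 9 lower than the sum of the single effects, against 12.2% and 11.4% (23.6% in either direction) over all probe sets. By family these were 3 of 16 PAU sets, all higher; 5 of 9 COS sets, all lower; and 7 of 8 AAD sets, 3 higher and 4 lower. COS2 (−1.48 ± 0.18, adjusted p = 0.00011) and COS8 (−1.46 ± 0.18, adjusted p = 1e-04) had the largest values. COS7 (−0.86), COS4 (−0.70) and COS6 (−0.62) were also below the sum of the single effects. AAD10 rose in each mutant, and its rise in the combined mutant was 0.72 ± 0.10 short of that sum (adjusted p = 0.00033).

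The 3 PAU interactions were PAU4 (0.94), PAU21 (0.69) and PAU2 (0.66). The calls of PAU4 and PAU2 ended on leaving out any of 11 and 9 arrays (highest adjusted p = 0.11 and 0.087), and the PAU count was 8 without wild-type array 1 and 1 without wild-type array 2, bmh array 2, hdac array 2 or 3, or combined array 2 or 3. PAU21 kept its call on leaving out any 1 array. The interaction of the AAD3 _at set (−0.42, adjusted p = 0.048) ended on leaving out any of 8 arrays (highest adjusted p = 0.11). The COS count was 5, or 6 without wild-type array 2.

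**Figure D5:**
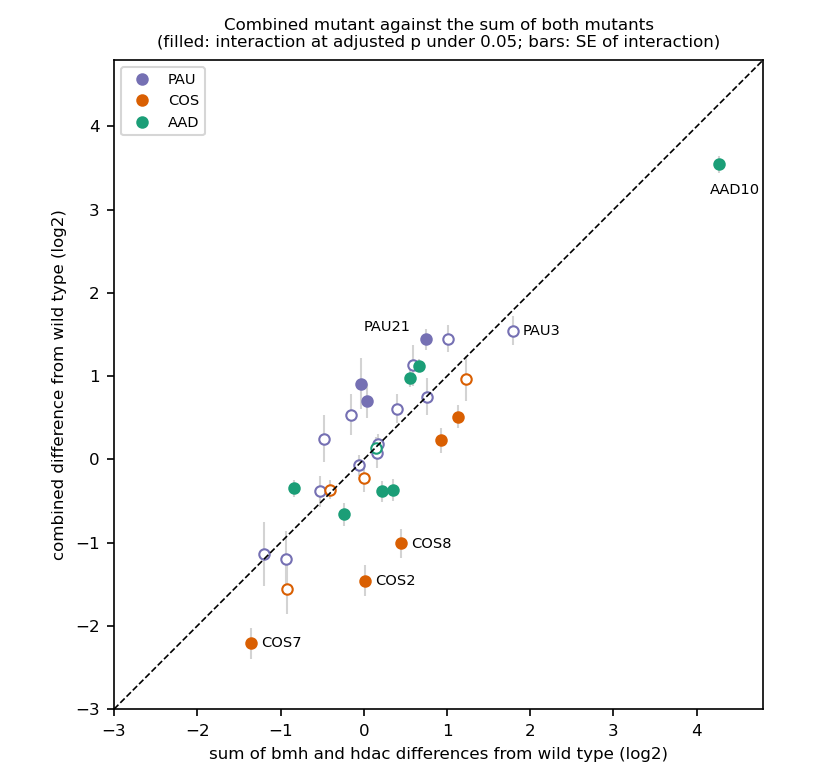
The horizontal axis gives the sum of the bmh and hdac log2 differences from the wild type and the vertical axis the combined mutant's difference; the dashed line marks equality, filled points passed the interaction test, and bars are its standard error. COS2, COS8 and COS7 lie below the line, AAD10 lies below it at the upper right, and PAU21 lies above it. Both axes share the wild-type arrays.

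Most members lay close to chromosome ends. The rule used symbols only, but the families are known for this position, so it is not a finding of these data. In the R64 gene order 20 of the 27 genes were among the 10 outermost genes of an end, 8 of 13 PAU, 8 of 9 COS and 4 of 5 AAD genes. The exceptions were COS111, AAD6 (the 11th gene) and PAU2, PAU5, PAU7, PAU17 and PAU23, which lie between 18 and 106 genes in. Of the 8 PAU probe sets named for outermost genes 4 rose in the hdac mutant, and of the 8 for genes further in 6 rose, with medians of 0.39 and 0.42. Among the sets further in that rose, only the PAU5 _at set is not shared by name. The bmh falls were 5 of 8 among the outermost and 1 of 8 further in, and all but that of PAU24 ended on leaving out a single array. Over all probe sets 30.4% rose in the hdac mutant and 16.9% fell in the bmh mutant. These sets differ in how many probes they share, and the part of shared sequence was not tested.

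For 213 probe sets of other genes among the 10 outermost of an end, 95 rose and 56 fell in the hdac mutant and 92 rose and 70 fell in the combined mutant, with medians of 0.17 and 0.05, against −0.08 and −0.12 over all probe sets. In all, 151 and 162 of the 213 were called, near the 71.3% and 75.7% of all probe sets, of which 30.4% and 31.0% rose and 40.9% and 44.7% fell. Directions varied among probe sets named for neighbouring genes. COS7 fell while the next gene, the maltose permease homologue MPH2, was 0.91 and 1.24 higher in the hdac mutant on its 2 probe sets, and the gene after it, the sorbitol dehydrogenase SOR2, was 1.54 higher. COS2 fell by 1.46 in the combined mutant while its neighbour PAU24 rose by 0.54 and the maltase gene MAL32, 2 genes away and read by an _s_at set, was 3.66 higher. The gene next to PAU3 on the inner side, YCR102C, was 2.03 higher in the hdac mutant, like PAU3 itself (1.88), whereas on the outer side ADH7, an alcohol dehydrogenase, was at 0.12. The sets of COS7, COS2, PAU3 and SOR2 and the MPH2 set at 1.24 also end in _s_at, and that of PAU24 in _x_at. Values of these shared sets cannot be tied to these loci alone.

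The Tir and Dan mannoproteins, relatives of the seripauperins and measured here with CWP1 and CWP2, mostly rose in the strains without deacetylases. The background for this and the following lists is the share of all probe sets that rose (30.4%, 31.0% and 14.8% in the hdac, combined and bmh mutants) or fell (40.9%, 44.7% and 16.9%). Of 8 genes, 6 rose and 0 fell in the hdac mutant, 7 rose and 0 fell in the combined mutant, and 1 rose and 1 fell in the bmh mutant. TIR3 rose by 3.95, TIR1 by 2.26 and DAN1 by 1.57 in the hdac mutant, and TIR1 fell by 2.19 in the bmh mutant. Of 12 regulators and oxygen-response genes, 0 rose and 4 fell in the bmh mutant, 1 rose and 5 fell in the hdac mutant and 0 rose and 5 fell in the combined mutant. ROX1, the repressor of hypoxic genes, was at −1.77 in the hdac and −1.81 in the combined strain. The repressor gene MOT3 was at −1.04 and −1.13, and SUT1, an activator of anaerobic sterol uptake, at −2.04 and −2.54. The rise was that of TUP1, a corepressor gene (0.77).

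Of 16 Yap1-related oxidative stress genes, 12 rose and 2 fell in the hdac mutant and 13 rose and 2 fell in the combined mutant, with OYE3, an old yellow enzyme gene, 1.71 and 1.53 higher. In the bmh mutant, where AAD10 rose, 2 of the 16 rose and 6 fell, among them OYE2 (−1.09) and the glutathione synthesis gene GSH1 (−0.95). For multivesicular body sorting, the pathway of the COS proteins, the list held 19 names. Among them the bmh strain had 5 rises and 1 fall, the hdac strain 6 and 8, and the combined strain 6 and 10. The names VPS22 and SNF8 had identical values, so the same probe set was counted under both. Its fall in the combined strain (−0.69 from the wild type) therefore entered the count under each name.

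Of 21 telomeric silencing genes 5 rose and 7 fell in the hdac mutant, 7 rose and 10 fell in the combined mutant, and 3 rose and 2 fell in the bmh mutant. SIR2, the silencing deacetylase, was at −0.94 in the hdac and −0.96 in the combined strain, SIR3 rose by 0.67 in the hdac mutant, and SAS4, of an acetyltransferase complex that bounds silent chromatin, rose by 0.89 and 1.10. Of 12 telomere maintenance genes 5 rose and 5 fell in the hdac mutant and 5 rose and 4 fell in the combined mutant, with the helicase gene PIF1 0.84 and 0.86 higher. In the bmh mutant 1 of these 12 rose and 3 fell. Of 15 other deacetylase subunit genes 4 rose and 7 fell in both the hdac and the combined mutant and 1 rose and 1 fell in the bmh mutant, with UME6, the DNA-binding partner of the Rpd3 complex, 0.85 and 1.05 higher and −0.67 in the bmh mutant.

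A list of 74 other genes had 54 measured members. It was written by name for subtelomeric families or positions, with earlier results known, and was not checked against the R64 gene order. Of the 54, 37 rose and 11 fell in the hdac mutant (median 0.89), and 39 rose and 11 fell in the combined mutant (median 1.39). In the bmh mutant 17 rose and 11 fell (median 0.12). These medians are not those of chromosome ends as a whole. The 213 probe sets taken by position had medians of 0.17 (hdac) and 0.05 (combined), with 95 and 92 rises and 56 and 70 falls. DAK2, a dihydroxyacetone kinase gene, rose by 6.96 and FDH1, a formate dehydrogenase gene, by 4.29 in the combined mutant.

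Mating-type transcripts also differed between the strains. In the hdac mutant 7 of 7 markers of a-cells fell (median −4.48) and 4 of 4 markers of alpha-cells rose (median 4.03). In the combined mutant 6 of the 7 a-cell markers fell, with a median of −1.85, and 1 of the 4 alpha-cell markers rose and 1 fell. In the bmh mutant 3 a-cell markers fell and 0 of the 4 alpha-cell markers passed. The part of cell type in the member differences was not tested.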

How the data were processed

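Signals had been summarised by the authors with RMA (affy), per the submitters' processing notes, and were deposited as log2 intensities. Neither tool versions nor the array's genome build is given in the sources used here; base 2 follows from RMA and the range of 3.385 to 14.87. Values were used as deposited. Groups and replicate numbers follow the titles. A single gene symbol was given for 5497 of 5715 probe sets, and 218 lacked one. RefSeq's R64 list gave locus tags and gene order; no coordinates are printed.

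A means model of the 4 strains was fitted to all 12 arrays with limma 3.58.1 in R 4.3.3 (degrees of freedom 8 residual, 3.77 prior). The p-values were adjusted by Benjamini-Hochberg over every probe set. The fit was tested on simulated data in which each probe set had the same spread in all strains. The wider spread of the wild-type arrays was not simulated. Members, lists and comparisons were chosen with earlier results of these data known. Per family, the 6 called members with the largest difference from the wild type and non-overlapping groups, and the one with the smallest, are given by array; for lists, up to 4 called genes with the largest change. Genes outside the rule (neighbours) and the end-position sets were chosen after the values were seen. The background from deleted genes was also chosen after the values were seen.

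Deviations of same-numbered bmh and combined arrays had correlations of 0.10 to 0.13, and those of their differently numbered arrays −0.10 to −0.035. Same-numbered arrays of the other pairs of strains had −0.17 to 0.095. Differently numbered wild-type and combined arrays reached 0.19, so values of this size do not establish a pairing. The labels give no pairing. Alternatives are in the closing section. Promoter and protein sequences were not used here.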

Additional observations from a re-analysis of the deposited data

Results flagged for a closer look

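The interaction term of limma passed at adjusted p under 0.05 for 15 members, against 23.6% of all probe sets. It sets the combined minus bmh difference against the hdac minus wild-type difference. The hdac arrays also differ in mating-type transcripts, which the term cannot tell apart from the bmh mutations. The COS values were all negative: −1.48 for COS2, −1.46 for COS8, −0.86 for COS7, −0.70 for COS4 and −0.62 for COS6. The AAD values were −0.60, −0.42 and −0.72 for the _s_at, _at and _x_at sets of AAD3, −0.72 for AAD10, 0.46 for the AAD4 _s_at set, 0.42 for AAD6 and 0.49 for AAD14. The PAU values were positive: 0.94 for PAU4, 0.69 for PAU21 and 0.66 for PAU2. Dixon's test for a single outlying array was not run on these strains of 3 arrays.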

How the results depend on the processing

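Of 113 called member differences over the 6 comparisons, 0 changed sign under the alternatives tried; 122 of 1356 repeats that left out 1 array and 57 of 1051 under other settings ended a call. The number of members called in the bmh mutant, 9, was 16 with array weights (weight of wild-type array 1, 0.088), 3 with only the compared arrays in the fit, 2 at adjusted p under 0.01, and 3 to 13 on leaving out 1 array. Without shared probe sets 14 members were left, of which 3 (bmh), 8 (hdac, 22 before), 10 (combined, 27 before), 9 (combined against bmh, 23 before), 9 (combined against hdac, 17 before) and 6 (interaction, 15 before) were called; fewer were tested. Leaving out 1 array gave 17 to 23 (hdac), 25 to 27 (combined), 22 to 26 (combined against bmh), 15 to 22 (combined against hdac) and 12 to 20 (interaction). With the replicate number as a block on all arrays the counts were 8, 20, 26, 23, 16 and 13. With the same block on the bmh and combined arrays alone, the count of their comparison was 26 in place of 23. The 6 counts over all members stayed within 1.5 times under quantile normalization, median centring, 1 probe set per gene or a filter at background. They also did so with a trended robust prior and without COS111. Only some of the family medians that moved are given with the families. Under quantile normalization the AAD medians were 0.25 (hdac), −0.26 (combined) and −0.13 (combined against bmh). The COS median in the hdac mutant was 0.01 there and 0.10 without wild-type array 1. Without shared probe sets the PAU medians were 0.20 (hdac), 0.07 (combined) and 0.18 (combined against bmh). The cause of these changes was not tested, and 3 arrays per strain limit the precision.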
